A study of Rattus norvegicus with 6 samples.

Results

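In rat intestinal epithelial cells depleted of Suz12, 59 named genes had at least 2-fold lower RNA levels than in control cells. The 59 genes are the symbols of 74 probe sets, of 14217 genes and 20826 probe sets that carry exactly 1 gene symbol. Members were chosen by the same values that are described here. The log2 value averaged over the ShSuz12 arrays had to lie at least 1 below the control average, and every ShSuz12 value had to lie below every control value. Suz12 itself, 10 further named symbols and all symbols beginning with Slc, Aldh, Col or Kcn were set aside. Before that step 76 genes with 95 probe sets met the values, which is 0.456% of the probe sets with 1 symbol. With each array's median subtracted first, 102 genes met the limits in place of 59. Because the contrast selected the genes, their differences are a description with no test. In RNA from whole cultures, fewer cells that express a gene and less of its RNA per cell cannot be told apart.

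The cells were IEC-6, an established rat line of small intestinal crypt origin that is grown in serum. ShSuz12 IEC-6 cells carried a lentiviral shRNA against Suz12, and control IEC-6 cells are labelled only as control, while the study's text calls them ShControl. RNA from 3 independent experiments per group was hybridized to 6 Affymetrix rat arrays. Each group was 1 puromycin-selected cell population, not a set of independently made lines, and a single shRNA sequence was used. The label protocol gives an infection efficiency of 25%. The shRNA is shown because it is the whole treatment that separates the groups. It is written 5′ to 3′ in lower case, with no part marked.
Suz12 shRNA: gctgacaatcaaatgaatcat

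Suz12 is a core subunit of Polycomb repressive complex PRC2, which methylates lysine 27 of histone H3. That mark is associated with genes kept silent, among them many regulators of development. Loss of a PRC2 subunit is therefore best known for raising the transcription of marked genes, and genes that are lower after its loss are the less described side. In the intestine PRC2 is known for its part in the proliferation of crypt progenitors.

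The depletion was visible on the arrays. The probe set for Suz12 read 5.82, 5.77 and 5.91 log2 units in ShSuz12 cells, against 8.45, 8.55 and 8.77 in control cells, which leaves 14.8% of the control level. Of 10 PRC2 subunits on the array 2 were lower and 1 was higher by limma with Benjamini-Hochberg adjustment over all probe sets. Besides Suz12 the lower one was the methyltransferase Ezh2 at -0.61. Over all 14217 genes 23.3% were lower and 17.1% higher at an adjusted p under 0.05. The PRC2 counts are near these shares, which also apply to the marker counts below. Arrays of a group correlated at 0.997 to 0.998 over all probe sets, and arrays of different groups at 0.979 to 0.980. The median of all probe sets was 6.26 to 6.27 in ShSuz12 cells and 6.15 to 6.17 in control cells, a shift of 0.10. The median difference of all probe sets was -0.05, and -0.15 once each array's median was subtracted. Of the epithelial markers, Cdh1, the adhesion molecule of epithelial junctions, read 11.79, 11.79 and 11.87 in ShSuz12 cells and 12.54, 12.69 and 12.51 in control cells. Epcam, Krt18 and Vil1, which are also epithelial markers, lay between 3.45 and 4.56 in ShSuz12 cells and between 3.41 and 4.66 in control cells, low on the array in both. Only 5 of 13 epithelial markers lay above the array median in ShSuz12 cells and 3 of 13 in control cells, so the epithelial label is carried by few of its markers. By limma at an adjusted p under 0.05, 3 of the 13 were higher, each more than 2-fold, and 2 were lower, neither by 2-fold. Those higher were Lgr5, a marker of crypt stem cells, by 3.59 log2 units, Cdx2, an intestinal transcription factor, by 1.56, and Krt19, a keratin, by 1.19, while Cdh1 and Krt8, another keratin, differed by -0.76 and -0.41. Fibroblast and smooth muscle markers were above the median for 9 of 14 in either group, and their summed linear signal was 41858 to 43548 in ShSuz12 cells and 29668 to 32352 in control cells. Of the 14, 7 were higher, 2 were lower and 5 did not pass. Much of the change in the sum came from Col3a1, a fibrillar collagen. It read 13.45, 13.41 and 13.45 in ShSuz12 cells and 11.06, 11.25 and 11.01 in control cells. Smooth muscle markers were split. Acta2 and Tagln were lower, at -0.66 and -0.35, Myh11 and Des were higher, at 0.65 and 0.36, and Cnn1 did not pass. For leukocytes 1 of 6 markers lay above the median in either group, and for endothelium 0 of 6. The part of these markers in the lower genes was not tested.

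Promoter sequences of 4 of the genes are shown to let a reader see the range of CpG content among the genes that were lower. Palmd has few CpG, Tril an intermediate number, Rgs2 many, and Nppc combines many CpG with the letters TATAAA. They were picked from the 59 after their values were seen. Each run is the 250 bases before the start of transcription listed by RefSeq on rat build GRCr8, 5′ to 3′ on the strand of the gene, which is the minus strand for all 4. Capitals mark each CpG and, in Nppc, the letters TATAAA, which begin 48 bases before the start. The positions are chr2:207626240-207626489 for Palmd, chr4:84257627-84257876 for Tril, chr13:58352667-58352916 for Rgs2 and chr9:94772187-94772436 for Nppc.
Palmd: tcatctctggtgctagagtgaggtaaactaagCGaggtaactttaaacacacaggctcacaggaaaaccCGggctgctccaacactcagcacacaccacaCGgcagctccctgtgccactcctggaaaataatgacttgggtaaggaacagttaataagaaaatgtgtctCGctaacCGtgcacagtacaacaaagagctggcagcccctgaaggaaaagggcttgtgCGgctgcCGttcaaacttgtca
Tril: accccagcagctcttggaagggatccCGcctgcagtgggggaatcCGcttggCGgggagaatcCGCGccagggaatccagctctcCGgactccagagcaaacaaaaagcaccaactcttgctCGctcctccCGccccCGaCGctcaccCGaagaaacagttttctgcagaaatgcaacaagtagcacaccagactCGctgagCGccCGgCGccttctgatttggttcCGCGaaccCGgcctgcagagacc
Rgs2: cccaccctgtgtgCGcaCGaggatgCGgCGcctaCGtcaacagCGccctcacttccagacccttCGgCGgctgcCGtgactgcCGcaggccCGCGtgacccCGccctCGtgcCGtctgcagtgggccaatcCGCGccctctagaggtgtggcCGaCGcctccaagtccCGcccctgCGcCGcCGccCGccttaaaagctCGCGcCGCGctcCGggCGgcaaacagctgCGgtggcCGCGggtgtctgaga
Nppc: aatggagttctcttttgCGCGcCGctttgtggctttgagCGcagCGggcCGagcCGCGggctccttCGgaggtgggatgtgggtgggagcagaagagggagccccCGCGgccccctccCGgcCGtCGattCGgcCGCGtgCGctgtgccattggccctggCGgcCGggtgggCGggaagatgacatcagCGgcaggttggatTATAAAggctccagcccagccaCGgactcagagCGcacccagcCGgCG

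The falls were mostly close to the limit. Taking for each gene the probe set with the largest fall, the difference between ShSuz12 and control cells ran from -1.99 to -1.004 log2 units, with a median of -1.18 and quartiles at -1.36 and -1.07. The median corresponds to 44.1% of the control level. For comparison, the median of all 20826 probe sets with 1 symbol was -0.06. More than 3-fold lower were 5 genes, C1qtnf7, C2h3orf80, Palmd, Tril and Deptor. More than 2.5-fold lower were 19 of the 59, and 25 were less than 2.2-fold lower. Between the highest ShSuz12 value and the lowest control value lay a gap of 0.48 to 1.83 log2 units, wider than 1 for 29 of the 59 genes. By limma with Benjamini-Hochberg adjustment over all probe sets, 123 of 31042 probe sets, named or not, were at least 2-fold lower, which is 0.396%, and this contrast is the one that chose the genes.

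**Figure D1:**
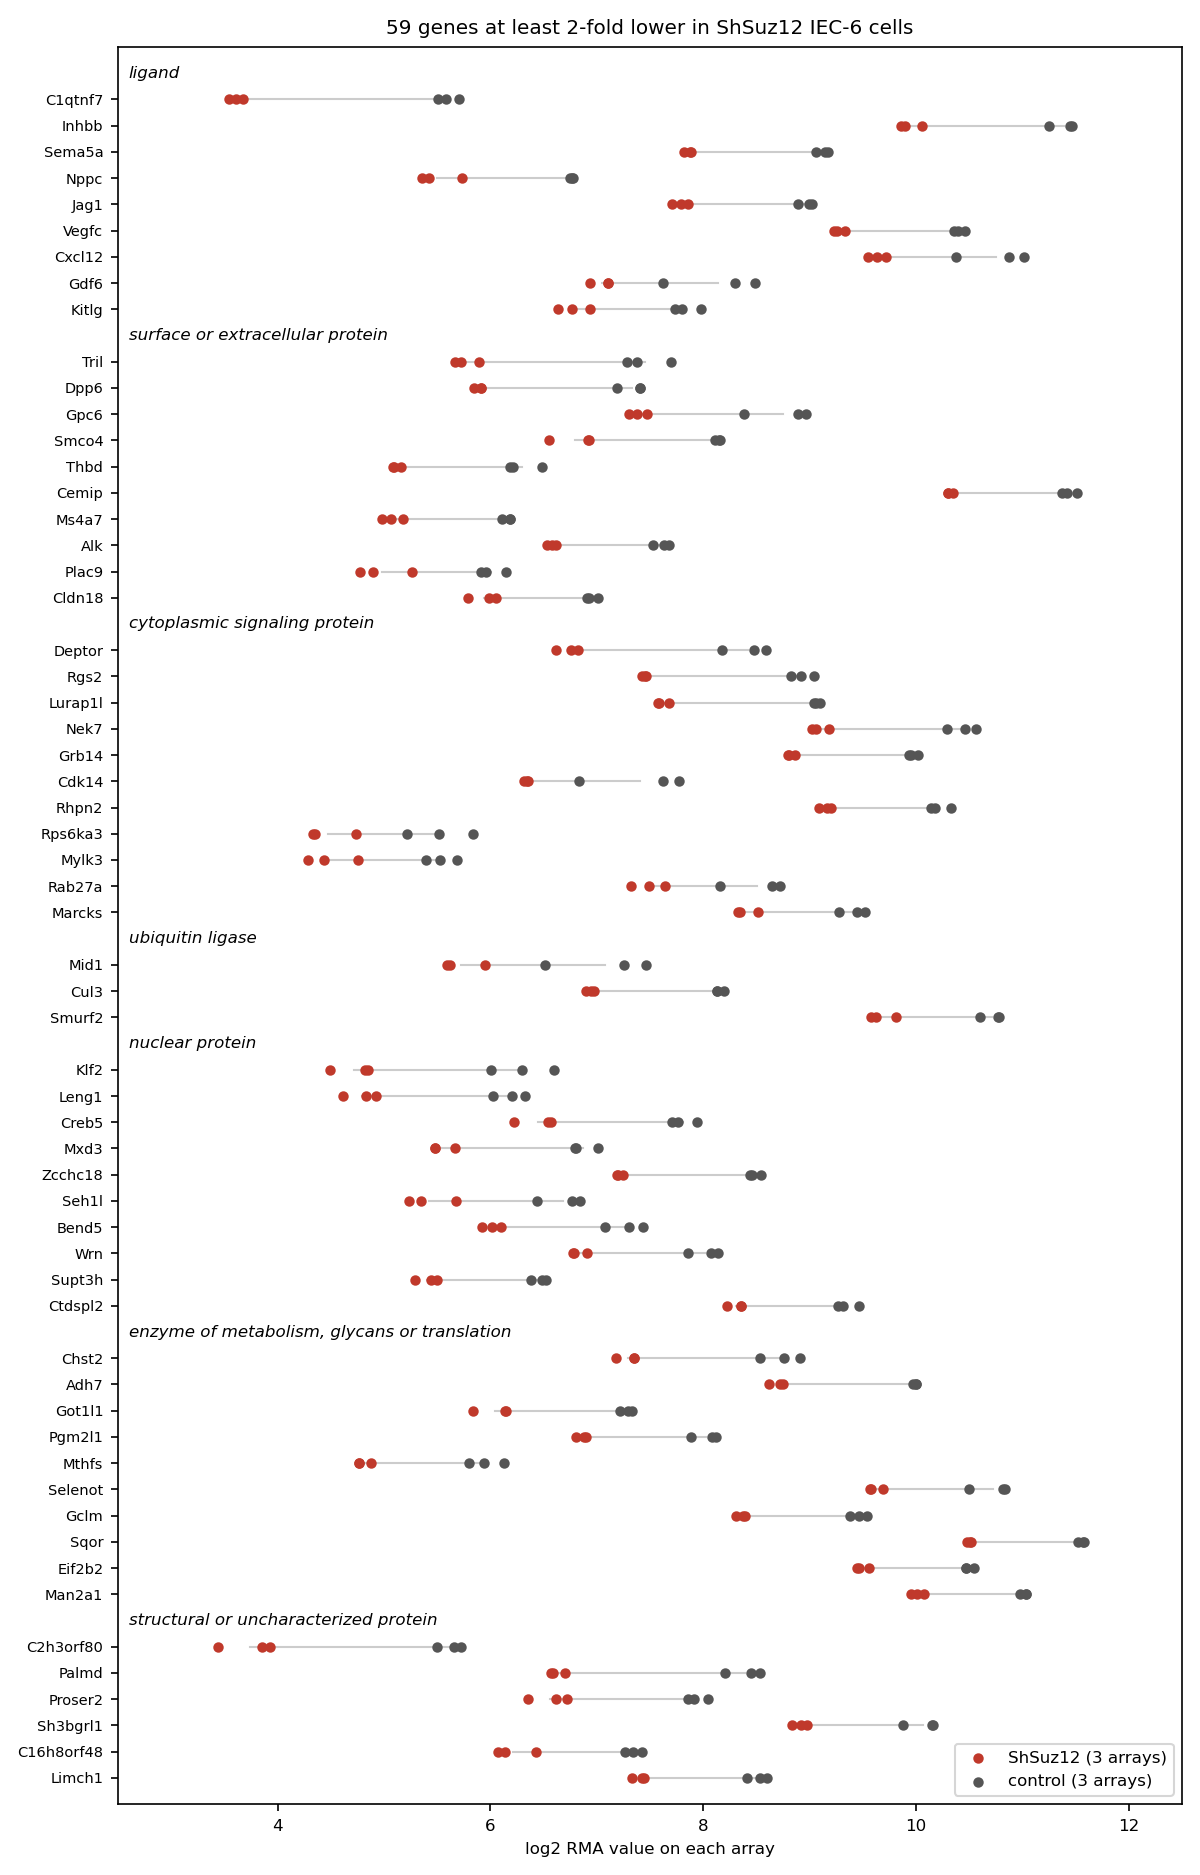
Each point is the log2 RMA value of 1 array for the member probe set with the largest fall of each of the 59 genes, with ShSuz12 cells in red and control cells in gray and a line joining the group means. Genes are grouped by role and ordered by the size of the fall. In every row the 3 red points lie left of the 3 gray points, as the selection requires, with the narrowest gaps for Rps6ka3 and Cdk14.

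Roles were assigned to the 59 genes only, so the counts by role have no share over the array beside them. Secreted signals and membrane-bound ligands made up 9 of the 59 genes, with a median difference of -1.18. The largest fall of the whole set was in C1qtnf7, a secreted protein of the C1q and TNF related family. Its probe set read 3.67, 3.55 and 3.61 in ShSuz12 cells, against 5.51, 5.59 and 5.71 in control cells, a difference of -1.99 ± 0.07 (SE by limma, n = 3 each). In ShSuz12 cells the mean stood at percentile 8.07 of the array, near its floor, and in control cells at percentile 43.1. Inhbb, which encodes the beta B chain of activin B and inhibin B, was the brightest of these ligands on member probe sets, with 9.90, 9.86 and 10.05 in ShSuz12 cells and 11.46, 11.45 and 11.25 in control cells. Its groups were separated by 1.20 log2 units, and it remained at percentile 91.6 in ShSuz12 cells. Sema5a, a transmembrane semaphorin of axon guidance, differed by -1.26, as did Nppc, the precursor of C-type natriuretic peptide. Jag1, a ligand of Notch receptors, differed by -1.18. Vegfc, the growth factor of lymphatic vessels, differed by -1.13. In these 4 genes no ShSuz12 value came within 1 log2 unit of a control value.

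The other 3 ligands had narrower gaps between the groups. Cxcl12, the chemokine that binds Cxcr4, read 9.71, 9.63 and 9.55 in ShSuz12 cells and 11.02, 10.37 and 10.88 in control cells. Gdf6, a growth factor of the bone morphogenetic protein family, read 7.11, 7.10 and 6.94 in ShSuz12 cells and 8.49, 7.63 and 8.30 in control cells. In both, control replicate 2 was the lowest of its group and lay nearest to the ShSuz12 arrays. Cxcl12 had 2 brighter probe sets, not members, on which control replicate 2 was not low. The brighter of these read 11.26, 11.27 and 11.24 in ShSuz12 cells and 12.11, 12.10 and 12.04 in control cells, and they differed by -0.83 and -0.82. Kitlg, the ligand of the receptor Kit, differed by -1.06 on its member probe set. Its other probe sets differed by -0.73, -0.71 and -0.31. The brightest was the one at -0.71, and the groups overlapped on those at -0.73 and -0.31.

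Surface and extracellular proteins were 10 of the genes, with a median difference of -1.15. Tril, a leucine-rich repeat protein that assists Toll-like receptor 4, read 5.66, 5.89 and 5.72 in ShSuz12 cells and 7.38, 7.70 and 7.29 in control cells, a difference of -1.70 ± 0.11 (SE by limma, n = 3 each). Dpp6, a catalytically inactive peptidase relative that joins voltage-gated potassium channels, read 5.91, 5.91 and 5.85 in ShSuz12 cells and 7.41, 7.19 and 7.40 in control cells. On these probe sets both genes lay below the array median in ShSuz12 cells, at percentiles 43.9 and 45.5. In control cells they lay above it, at percentiles 65.0 and 63.4. A brighter Dpp6 probe set, also a member, differed by -1.15. It was above the array median in both groups, at percentile 68.2 in ShSuz12 cells and 81.9 in control cells. Gpc6, a glypican that carries heparan sulfate at the cell surface, had 3 member probe sets. The brightest read 10.86, 10.87 and 10.95 in ShSuz12 cells and 11.99, 11.93 and 11.91 in control cells, at percentile 98.5 of the control arrays. The differences of the 3 sets were -1.37, -1.18 and -1.05, the largest on the dimmest of the 3. Another Gpc6 probe set, not a member and dimmer than these in control cells, differed by only -0.48. Cemip, which takes part in breaking down hyaluronan, was also bright, at percentile 97.6 in control cells, and differed by -1.12.

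Among the remaining surface and extracellular genes, Smco4, a small membrane protein with a coiled coil, differed by -1.34. Thbd, thrombomodulin of the anticoagulant protein C pathway, differed by -1.18 on its member probe set. Its dimmer probe sets differed by -0.51 and -0.20, the last with overlapping groups. Ms4a7, a membrane-spanning protein of the Ms4a family, differed by -1.08. The control values spanned at most 0.304 log2 units in these 3 genes. Alk, a receptor tyrosine kinase, differed by -1.04. Plac9, a small secreted protein, differed by -1.03. Cldn18, a claudin of tight junctions, differed by -1.01, and is among the genes nearest to the limit. On the other Cldn18 probe sets the differences were -0.68 and -0.51.

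Cytoplasmic signaling proteins formed the largest group, 11 genes, with a median difference of -1.07. Deptor, an inhibitory partner of the kinase mTOR, had a pair of probe sets, both members. The one with the larger fall read 6.76, 6.82 and 6.62 in ShSuz12 cells and 8.48, 8.18 and 8.59 in control cells, a difference of -1.69 ± 0.11 (SE by limma, n = 3 each). The brighter one differed by -1.50 ± 0.06. Rgs2, which speeds the shutting off of Gq proteins, read 7.42, 7.45 and 7.46 in ShSuz12 cells and 8.82, 8.92 and 9.05 in control cells, and its second probe set differed by -1.42 against -1.48 for the first. Lurap1l, named for its likeness to the adaptor Lurap1, read 7.59, 7.58 and 7.68 in ShSuz12 cells and 9.04, 9.06 and 9.10 in control cells. For Rgs2 and Lurap1l the ShSuz12 arrays agreed within 0.104 log2 units on the first-named probe sets.

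Nek7, a kinase of mitosis and of the NLRP3 inflammasome, had the brightest member probe set of the signaling group, with 10.66, 10.62 and 10.68 in ShSuz12 cells and 11.78, 11.74 and 11.71 in control cells. Its differences were -1.35 and -1.09 on its 2 probe sets. Grb14, an adaptor that binds the insulin receptor, differed by -1.15. Rhpn2, a scaffold protein of the rhophilin family, differed by -1.06. All of these were in the top 10% of the control arrays.

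Weaker separation was seen in the other signaling genes. Cdk14, a kinase that pairs with cyclin Y, read 6.35, 6.35 and 6.31 in ShSuz12 cells and 7.78, 6.84 and 7.62 in control cells. Its control replicate 2 lay only 0.49 above the highest ShSuz12 array. Rps6ka3, the ribosomal S6 kinase RSK2 downstream of ERK, read 4.74, 4.35 and 4.33 in ShSuz12 cells and 5.21, 5.52 and 5.84 in control cells, with the narrowest gap of the 59, 0.48. Mylk3, the myosin light chain kinase of heart muscle, differed by -1.05. Rab27a, a GTPase of secretory vesicles, differed by -1.03. Marcks, a membrane-associated substrate of protein kinase C, differed by -1.02. The member probe sets of Mylk3 and Rps6ka3 were below the array median in both groups. Rps6ka3 had 2 brighter probe sets that were above it in both groups and differed by -0.73 and -0.62.

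Ubiquitin ligases were 3 of the 59 genes. Mid1, a microtubule-associated ligase that targets protein phosphatase 2A, read 5.95, 5.59 and 5.62 in ShSuz12 cells and 7.26, 6.52 and 7.46 in control cells, and differed by -1.36 and -1.09 on its member probe sets. Smurf2, which ubiquitinates TGF-beta receptors and Smad proteins, had the brightest member probe set of the 3, with 9.58, 9.62 and 9.82 in ShSuz12 cells and 10.60, 10.77 and 10.78 in control cells. Cul3, the scaffold of ligases that recruit BTB-domain proteins, read 6.97, 6.95 and 6.90 in ShSuz12 cells and 8.13, 8.13 and 8.20 in control cells on its member probe set. A brighter Cul3 probe set did not show this: it read 10.77, 10.79 and 10.81 in ShSuz12 cells and 10.83, 10.94 and 10.82 in control cells, a difference of -0.07. The Cul3 fall therefore belongs to 1 of its 3 probe sets, and which transcripts each of them reads was not examined.

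Nuclear proteins numbered 10, with a median difference of -1.26 and a median control level at percentile 60.3. Klf2, a Kruppel-like transcription factor, read 4.82, 4.49 and 4.85 in ShSuz12 cells and 6.60, 6.30 and 6.00 in control cells on the probe set with the larger fall. Its second member differed by -1.23 and was brighter, with 7.38, 7.60 and 7.43 in ShSuz12 cells and 8.76, 8.69 and 8.65 in control cells. The other 3 Klf2 probe sets differed by -0.16, -0.14 and 0.07, so the 5 probe sets of this gene fall into a low pair and 3 near no difference. Leng1, whose role is not well established, read 4.83, 4.93 and 4.61 in ShSuz12 cells and 6.02, 6.21 and 6.33 in control cells. Its other probe set differed by -0.74.

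Creb5, a leucine zipper factor of the CREB family, had 3 member probe sets, which differed by -1.36, -1.06 and -1.03. Creb5 probe sets that were not members differed by -0.60 and -0.27. Mxd3, a partner of Max in the Myc network, differed by -1.33. Bend5, a BEN-domain protein that represses transcription, differed by -1.26. Supt3h, a subunit of the SAGA coactivator complex, differed by -1.06. On the member probe sets of these 4 transcriptional genes the mean control level lay between percentiles 43.2 and 69.2. Zcchc18, a zinc finger protein, differed by -1.27. Wrn, the RecQ helicase mutated in Werner syndrome in humans, differed by -1.20. Ctdspl2, a phosphatase-like protein related to those of the RNA polymerase II tail, differed by -1.04. Seh1l, a protein of the nuclear pore and of the GATOR2 complex upstream of mTOR, had a pair of member probe sets, and the brighter read 8.94, 8.88 and 8.73 in ShSuz12 cells and 10.12, 9.92 and 10.02 in control cells. Every ShSuz12 array was at least 0.99 below every control array there.

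Enzymes of metabolism, glycans or translation also numbered 10 and had the highest median control level of the groups, at percentile 89.6. Chst2, a Golgi sulfotransferase acting on N-acetylglucosamine, read 7.35, 7.18 and 7.35 in ShSuz12 cells and 8.76, 8.91 and 8.53 in control cells. Man2a1, the Golgi mannosidase that trims N-glycans, read 10.01, 9.96 and 10.07 in ShSuz12 cells and 11.04, 11.04 and 10.97 in control cells. Chst2 differed by -1.44 and Man2a1 by -1.004. Adh7, an alcohol dehydrogenase that also oxidizes retinol, differed by -1.29. Sqor, the mitochondrial oxidase of hydrogen sulfide, had the brightest member probe set of the enzymes, with 10.51, 10.52 and 10.48 in ShSuz12 cells and 11.53, 11.57 and 11.58 in control cells. Gclm, the regulatory subunit of the ligase that starts glutathione synthesis, differed by -1.11, the same value to 2 decimals as Selenot, a selenoprotein of the endoplasmic reticulum. These redox and sulfur enzymes showed gaps between groups of 0.81 to 1.01.

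Of the other enzymes, Got1l1, which resembles an aspartate aminotransferase, differed by -1.24. Pgm2l1, which makes glucose bisphosphate, differed by -1.17 and -1.01 on its member probe sets. Mthfs, which returns formyl folate to the folate pool, differed by -1.16 and -1.03. Mthfs had another probe set, not a member, at -0.69. Eif2b2, a subunit of the exchange factor that reloads eIF2 for translation initiation, read 9.56, 9.45 and 9.46 in ShSuz12 cells and 10.55, 10.47 and 10.47 in control cells.

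The last 6 genes encode structural proteins or proteins without a settled role. C2h3orf80, an uncharacterized protein, read 3.86, 3.44 and 3.93 in ShSuz12 cells and 5.66, 5.73 and 5.50 in control cells, and its mean was at percentile 10.7 in ShSuz12 cells. Palmd, palmdelphin, a cytosolic relative of the membrane-shaping protein paralemmin, had 3 member probe sets. The one with the largest fall read 6.59, 6.70 and 6.57 in ShSuz12 cells and 8.45, 8.21 and 8.53 in control cells. The 3 differed by -1.78, -1.60 and -1.49, and a dimmer probe set, not a member, by -0.45. The Palmd promoter, the CpG-poor one of those printed, had a CpG ratio of 0.44 over the whole window. Proser2, a proline- and serine-rich protein, differed by -1.38. Sh3bgrl1, of the SH3-binding glutamate-rich family, read 8.98, 8.92 and 8.83 in ShSuz12 cells and 10.16, 9.88 and 10.15 in control cells and had the brightest member probe set of the 6. C16h8orf48, uncharacterized, differed by -1.13, and Limch1, a LIM and calponin homology protein that binds nonmuscle myosin, by -1.11.

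The limit of 1 log2 unit cut through a continuous range. Just inside were Man2a1 at -1.004, Eif2b2 at -1.005, Cldn18 at -1.007 and Marcks at -1.017. Just outside were Gna14, a G protein alpha subunit, at -0.9996, Rbmx, an RNA-binding protein of splicing, at -0.996, and Elovl6, a fatty acid elongase, at -0.993, followed by a second Limch1 probe set at -0.989. Gna14 read 5.19, 5.13 and 5.57 in ShSuz12 cells and 6.30, 6.26 and 6.32 in control cells. Rbmx read 7.39, 7.51 and 7.45 in ShSuz12 cells and 8.50, 8.41 and 8.43 in control cells. Elovl6 read 8.19, 8.14 and 8.15 in ShSuz12 cells and 9.05, 9.17 and 9.25 in control cells. None of the 3 overlapped between groups, so they were kept out by the size of the difference alone. At least 1 log2 unit lower with overlapping groups were 0 probe sets of the 31042.

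The RNA levels of these genes in control cells were spread over the middle and upper part of the array. A percentile here is the rank of the group's mean among the 31042 probe sets, and it ranks brightness, which also depends on how well each probe binds, not transcript number. Over the 74 member probe sets the control percentile ran from 42.1 to 98.5 with a median of 76.4, against a median of 58.7 for all probe sets with 1 symbol. Of the 74, 66 lay above the array median, or 89.2%, compared with 58.5% of all. In the top 10% were 19, or 25.7%, compared with 12.8%. None of the 74 lay in the lowest 40% of the control arrays, where 32.2% of all probe sets with 1 symbol lie. A fall of 2-fold needs room above the floor of the array, so these shares are not independent of the selection. In ShSuz12 cells the median percentile was 61.4, and 51 of the 74 were still above the array median. Only C1qtnf7 fell into the lowest 10%.

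**Figure D2:**
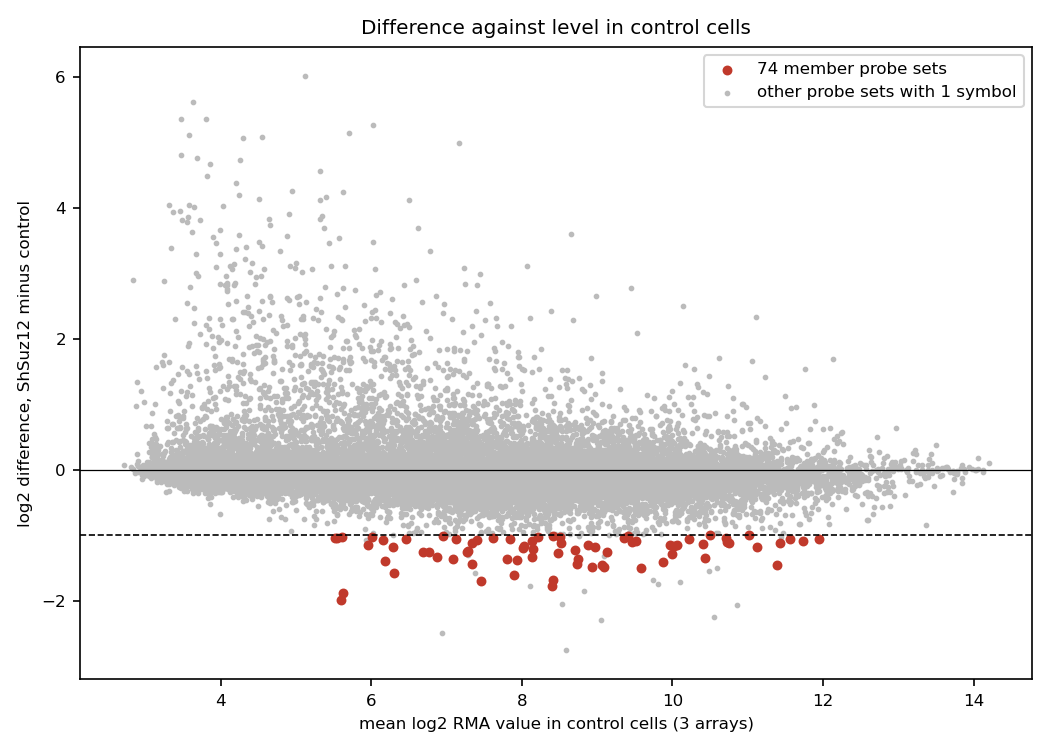
The mean log2 RMA value of 3 control arrays is on the x axis and the log2 difference, ShSuz12 minus control, on the y axis, for the probe sets with 1 symbol. Red points are the 74 member probe sets, and the dashed line marks the limit of -1. Gray points below that line are the symbols set aside, Suz12 among them. Red points start at a control level of 5.52 and reach 11.95, and none lies lower than -1.99.

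By role, medians of the control percentile were 89.6 for the metabolic, glycan and translation enzymes, 82.9 for the ligands and 82.5 for the signaling proteins, against 64.2 for surface and extracellular proteins and 60.3 for nuclear proteins. The median falls of the same groups were -1.13, -1.18, -1.07, -1.15 and -1.26, and the selection holds every fall at 1 or more. For both measures the groups overlapped widely, with ligands for example at control percentiles of 43.1 to 97.5 and nuclear proteins at 50.3 to 86.7.

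By median SD the control arrays varied more than the ShSuz12 arrays, in these genes and over the whole array. Over the 74 member probe sets the median SD was 0.101 in control and 0.084 in ShSuz12 cells. Over all probe sets with 1 symbol it was 0.080 and 0.065. Of the 74 member probe sets, 8 had a range over 0.5 log2 units across the control arrays, and 0 had such a range across the ShSuz12 arrays. Control replicate 2 was the lowest of its group in 6 of the 8, those of Mid1, Cdk14, Gdf6, Cxcl12, Gpc6 and Rab27a. The other 2 were Rps6ka3 and Klf2. Over all 74, the median value was 8.47, 8.19 and 8.43 on control replicates 1, 2 and 3. That is a median of levels and shows no common shift of replicate 2. Its median deviation from the control mean of each probe set was -0.007. Replicates 1, 2 and 3 were the lowest of the control group in 26, 27 and 21 of the 74. When each array was left out in turn, 44 of the 59 genes met the limits every time and 15 dropped out at least once. Those 15 were Cdk14, Cldn18, Ctdspl2, Cxcl12, Eif2b2, Gdf6, Kitlg, Man2a1, Marcks, Mylk3, Plac9, Rab27a, Rps6ka3, Smurf2 and Supt3h.

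Several of the genes were measured more than once on the array, which gives a second look that the selection only partly used. There were 28 genes with 1 probe set and 31 with more. All probe sets were members for 6 of the 31: Deptor, Dpp6, Nek7, Pgm2l1, Rgs2 and Seh1l. The remaining 25 genes had 46 further probe sets that were not members. Of these 46, 32 differed by -0.5 or lower, 11 lay between -0.5 and 0, and 3 were at 0 or higher. Their median was -0.70, and 35 of the 46 had every ShSuz12 value below every control value. Over all probe sets with 1 symbol the lower quartile of the difference was -0.20. The gap from the highest ShSuz12 to the lowest control value had an upper quartile of 0.046 over all of them. Because that quartile is positive, such separation is common on these arrays. The 46 are described against that background. These further probe sets read the same RNA samples as the members and had missed the limits by definition, so they are no separate support.

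Brightness went with the size of the difference in these further probe sets, whose falls the limit kept under 1. Among member probe sets it went the other way. In all of the 12 genes with several members except Creb5, the brightest member had the smallest fall. Examples are Klf2, at -1.23 against -1.58, and Dpp6, at -1.15 against -1.44. The next counts are of the further probe sets. Above the array median in control cells, 26 of 30 differed by -0.5 or lower, and below the median 6 of 16 did. Marcks had 5 further probe sets, at -0.96, -0.88, -0.69, -0.58 and 0.03, the last at percentile 18.8 of the control arrays. Sema5a had 3, at -0.94, -0.81 and 0.02, the last at percentile 27.3. Cdk14 differed by -0.74 on a bright probe set, with 10.34, 10.33 and 10.38 in ShSuz12 cells and 11.11, 11.18 and 10.99 in control cells, where control replicate 2 was not low. A bright probe set with almost no difference was found for Cul3, as given above, at percentile 95.9 of the control arrays. The Klf2 probe sets near no difference were dimmer, at percentiles 66.6, 54.0 and 17.2. The brightest Klf2 probe set, at percentile 79.9, was a member. The brightest probe set of the gene was a member for 44 of the 59 genes. Among the other 15 were Plac9, Proser2 and Rab27a, which differed on it by -0.85, -0.85 and -0.76. Selenot, Smurf2 and Supt3h, also of the 15, differed on it by -0.92, -0.90 and -0.82.

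**Figure D3:**
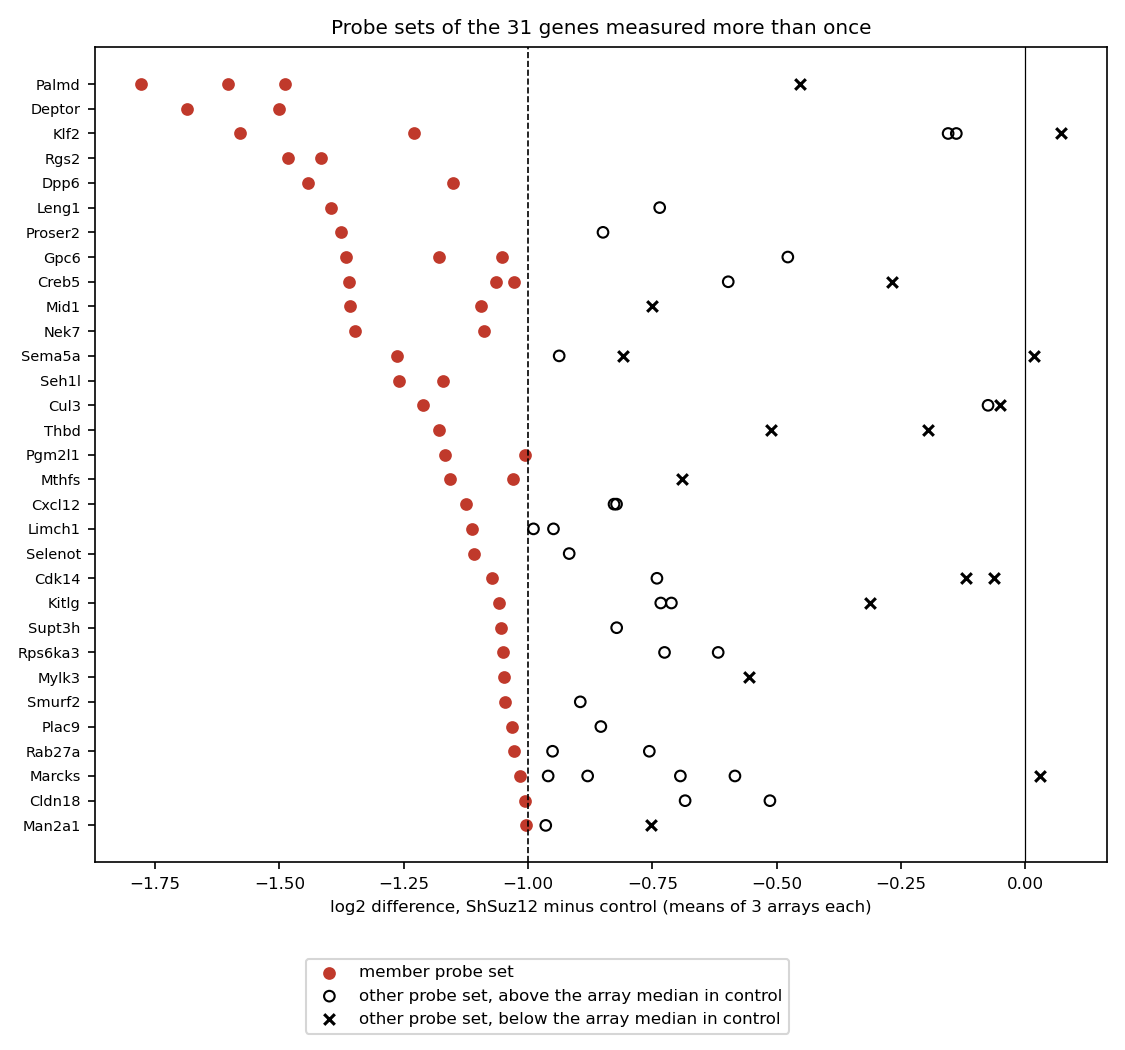
Each row is 1 of the 31 genes with more than 1 probe set, and the x axis gives the log2 difference, ShSuz12 minus control, from means of 3 arrays each. Red points are members, open circles are other probe sets above the array median in control cells, and crosses are other probe sets below it. Most open circles lie between -0.5 and -1, with those of Cul3 and Klf2 near 0.

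Deptor, Tril and C1qtnf7 belong to pathways whose other genes were also on the array. Each gene was read on its brightest probe set and compared with limma, two-sided, with Benjamini-Hochberg adjustment over all probe sets. Over all 14217 genes 23.3% were lower and 17.1% higher at an adjusted p under 0.05, with a median difference of -0.05, so single calls of small size are common here. Of 26 listed genes of the mTOR complexes and their regulators, 5 were lower, Deptor included, and 4 were higher, with a median difference of -0.03. That list left out Seh1l, of the GATOR2 complex upstream of mTOR, which differed by -1.17 on its brightest probe set. Of 17 genes of the Toll-like receptor 4 complex and its adaptors, 4 were lower, Tril included, and 6 were higher, with a median of 0.05. Of 11 C1q and TNF related proteins and adiponectin receptors, 1 was lower, C1qtnf7 itself, and 3 were higher, with a median of 0.01. These medians are smaller than the 0.10 shift between the array medians, so their signs have no weight.

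Apart from Deptor, Tril and C1qtnf7, the genes of these lists that differed at least 2-fold were all higher. Seh1l, which was lower, was not listed. The higher genes are named because their values stood out. Lbp, which carries lipopolysaccharide to the receptor, read 11.31, 11.29 and 11.27 in ShSuz12 cells and 5.90, 6.09 and 6.08 in control cells, a difference of 5.26 (adjusted p = 6.46e-09, limma). Tlr4, the receptor that Tril assists, read 6.90, 6.85 and 6.51 in ShSuz12 cells and 4.25, 4.35 and 4.49 in control cells, a difference of 2.39 (adjusted p = 2.21e-06, limma). Tril and Tlr4 thus differed in opposite directions. The mTOR genes Rragd, a Rag GTPase, and Prr5l, an mTORC2-associated protein, were higher by 1.90 and 1.87 (adjusted p = 3.21e-05 and 1.43e-06, limma). Rps6kb1, the S6 kinase that mTOR activates, differed by -0.69 (adjusted p = 8.43e-05, limma). C1qtnf3, of the same family as C1qtnf7, read 8.78, 8.70 and 8.28 in ShSuz12 cells and 5.46, 5.43 and 5.52 in control cells, a difference of 3.11 (adjusted p = 7.72e-07, limma).

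**Figure D4:**
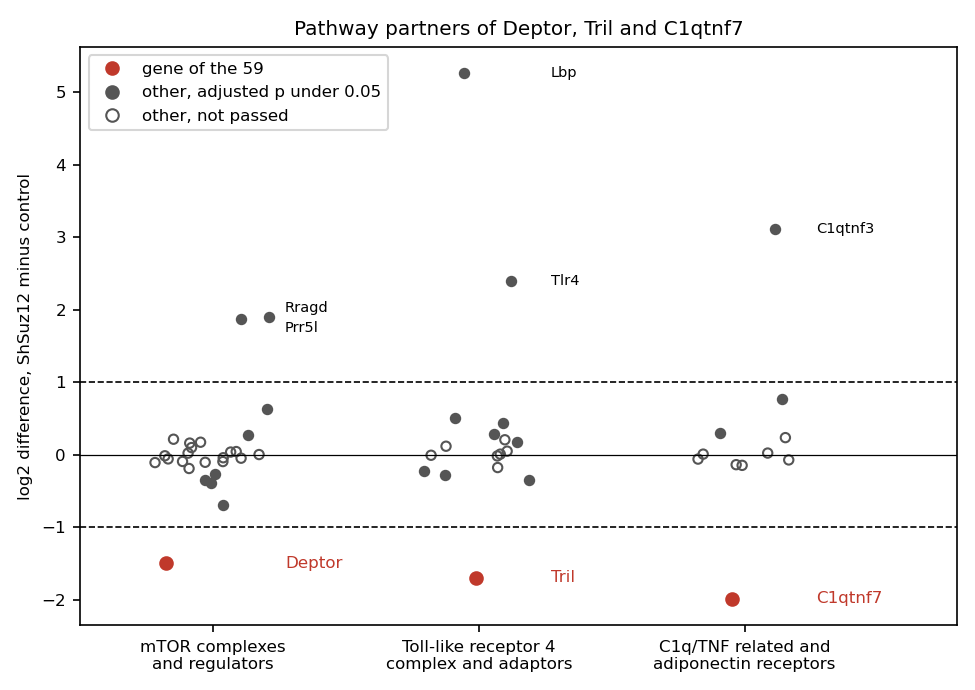
The y axis gives the log2 difference, ShSuz12 minus control, of each measured gene of 3 lists, which stand side by side with a random sideways offset. Red points are genes of the 59, filled gray points are other genes at an adjusted p under 0.05 by limma, open circles are genes that did not pass, and dashed lines mark 2-fold. Deptor, Tril and C1qtnf7 lie below -1 in their lists, and Lbp, Tlr4, C1qtnf3, Rragd and Prr5l lie above 1. Seh1l is on none of the lists and is not drawn.

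The genes were scattered over the genome. All 59 matched the RefSeq gene table of GRCr8, and of the numbered chromosomes and X only 11 and 12 held none of them. Chromosome 16 held 6 of them, or 10.2%, compared with 2.90% of the genes on the array. These were counts of few genes. Chromosome 2 also held 6, compared with 6.58% of the genes on the array. Creb5 and Tril were the only pair with 0 protein-coding genes between them, on chromosome 4. The next closest pair, Palmd and Gclm on chromosome 2, had 15 between them.

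Promoter windows of 300 bases, 250 before and 50 after the start, were found for 49 of the 59 genes in RefSeq, as 53 windows, and for 11733 of the genes on the array, as 13242 windows. The median GC content was 62.3% for the 59 genes and 59.7% for all. The median CpG ratio, observed over expected, was 0.75 compared with 0.70 for all, and it was above 0.6 in 38 of 53 windows, or 71.7%, compared with 61.3%. The letters TATAAA, sought on both strands, were in 7 windows, or 13.2%, compared with 8.46% of all. Those windows belonged to Cemip, Creb5, Kitlg, Nppc, Selenot and, in 2 windows, Limch1. The AP-1 letters TGANTCA were in 2 windows, those of Adh7 and Sqor, or 3.77%, compared with 5.60%. The TEAD letters GGAATG were in 7 windows, or 13.2%, compared with 11.9%. A match describes letters in the window and is not a binding site. None of the 3 motifs contains another.

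**Figure D5:**
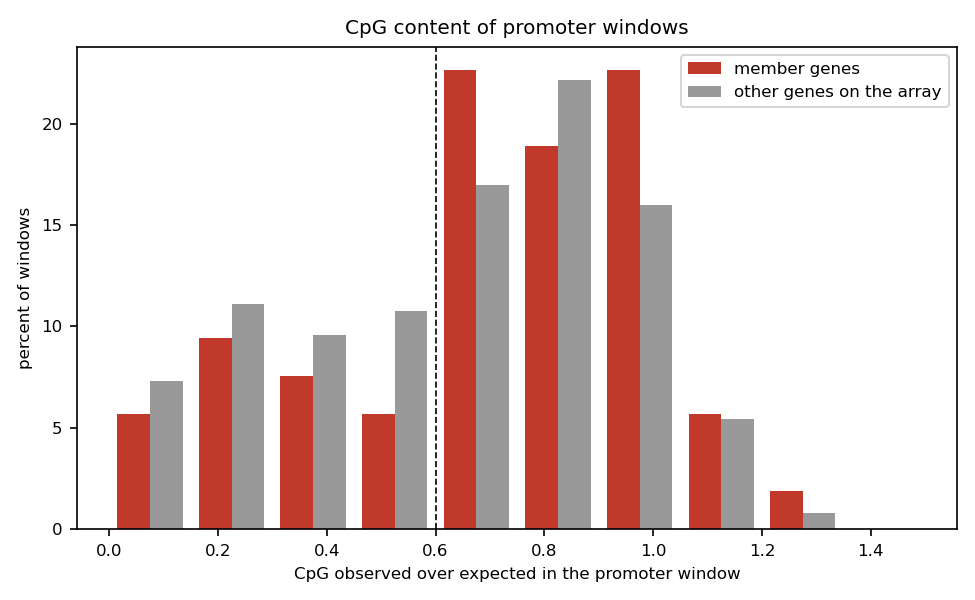
Bars give the percent of promoter windows in each range of the CpG ratio, with the 59 genes in red and the other genes on the array in gray, and the dashed line marks 0.6. Red bars are higher than gray bars in the range just above 0.6 and near 1, and lower in every range below 0.6.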

How the data were processed

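Total RNA of ShSuz12 and control IEC-6 cells from 3 independent experiments each was measured on Affymetrix rat arrays. The authors ran RMA in FlexArray 1.6.1, and the deposited values are log2 signals after its background correction, normalization and summary per probe set. RMA fits all arrays jointly and compresses differences of dim probe sets. The scanner files were not used here.

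All 57 control probe sets were left out. For the remaining 31042 a linear model was fitted in limma 3.58.1 (lmFit, then eBayes; R 4.3.3), which gave standard errors and two-sided p-values adjusted by Benjamini-Hochberg. Counts and figures were made in Python 3.11.15 with pandas 2.3.3 and matplotlib 3.10.9. Gene names came from the platform annotation. It listed 1 symbol for 20826 probe sets, several for 436 and none for 9780, of which 28 also met the limits and are unnamed here. Both the limma fit and the selection were tested on simulated data.

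The members and gene lists were chosen with earlier results of these data known. Every member is named. Values on each array are given for the 12 largest falls and the gene with the brightest member probe set of each role. They are also given for some genes at the limit and for some others where replicates or probe sets differed, not for all. Level filters, other normalizations, fold limits, the methods' t-test, leaving out arrays and a replicate block were tried. Precision is limited by the small number of arrays, and p-values cover the spread between experiments of 1 cell population per group. No pairing of the experiments is stated.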

Additional observations from a re-analysis of the deposited data

How the results depend on the processing

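With each array's median subtracted, 194 probe sets were called at least 2-fold lower by limma, in place of 123, and 129 probe sets of 102 genes met the selection, in place of 74 probe sets of 59 genes. That scaling lowers every difference by 0.10. At 1.5-fold the counts were 731 by limma and 535 probe sets of 422 genes by the selection. At 3-fold they were 22, and 6 probe sets of 5 genes. Same-numbered arrays did not deviate together (correlations of 0.02, -0.04 and -0.06). With the replicate block limma again called 123, and 45 probe sets of 35 genes differed by at least 1 in each same-numbered pair, a stricter limit by construction. Leaving out 1 array gave 119 to 130 calls by limma, 70 to 83 member probe sets and 55 to 66 member genes. A gene's brightest probe set alone gave 44 genes, and the mean of its probe sets 41. A second quantile normalization gave 65 genes, of which 55 were among the 59; Eif2b2, Man2a1, Marcks and Smurf2 were lost. The methods' t-test called 123, and 121 after Benjamini-Hochberg. Of 154 alternative values for 18 named genes 0 changed sign and 12 moved by more than 1 SD, among them Klf2, which averaged -0.61 over its probe sets.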
